A study of Schizosaccharomyces pombe with 4 samples.

Results

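Hexose transporter and hexokinase genes of the fission yeast Schizosaccharomyces pombe were examined for RNA polymerase II that carries phosphate on serine 5 of the repeats in its C-terminal domain (Ser5P). The set was chosen by name in the genome annotation: the 8 members of the ght family, ght1 to ght8, and the 2 hexokinase genes, hxk1 and hxk2, which are 10 of the 5113 protein-coding genes on chromosomes I to III. Chromatin came from cells lacking Abp1 (abp1Δ, written ABP1d in the labels), a homolog of the mammalian centromere protein CENP-B, and from wild-type cells. Both were grown exponentially in YES, a rich medium, fixed in 1% formaldehyde over 15 min, with glycine then added to 125 mM. The 4 samples are a Ser5P immunoprecipitate and an input for each genotype, and each immunoprecipitate has 1 list of scored intervals. The inputs were not analysed here, and the labels name no parental strain or clone.

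Neither genotype has a replicate list, so no test between genotypes was made, and read depth is unknown. The abp1Δ list holds 2851 intervals over 249934 bp and the wild-type list 3242 intervals over 227413 bp. The deposited score is a whole number of unstated unit whose lowest value is 200 in both lists. A gene without an interval may therefore carry polymerase below that level. Covered length, the number of bases inside intervals, depends on the same level and on depth and scaling. The deleted gene, SPBC1105.04c, had 0 covered bp in either list, so the genotype labels could not be checked by it. In cell populations a lower value cannot tell fewer cells with polymerase on a gene from less polymerase per cell.

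Fission yeast takes up glucose through the Ght proteins, which move sugar across the plasma membrane together with protons. The family holds transporters of differing affinity and substrate: Ght5 is the main high-affinity glucose transporter, and Ght3 imports gluconate. Hexokinase then phosphorylates the sugar, the first step of glycolysis. Serine 5 phosphorylation marks polymerase from initiation into early elongation.

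Several transporter genes share stretches of coding sequence, and the intervals of ght1, ght5 and ght6 lay largely in them. The sequence around the single interval of ght6 is shown, because 4 genes have it almost letter for letter. It is given for 4 genes, ght8 (chr3:227178-227308, minus strand), ght5 (chr3:213405-213535, plus strand), ght1 (chr3:233285-233415, minus strand) and ght6 (chr3:205831-205961, plus strand), on assembly ASM294v3. Capitals mark bases that are the same in all 4 genes, 128 of 131.
ght8: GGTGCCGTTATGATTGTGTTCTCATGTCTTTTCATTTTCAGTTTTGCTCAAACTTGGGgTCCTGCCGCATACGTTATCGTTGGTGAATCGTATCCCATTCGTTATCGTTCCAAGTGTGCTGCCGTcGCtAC
ght5: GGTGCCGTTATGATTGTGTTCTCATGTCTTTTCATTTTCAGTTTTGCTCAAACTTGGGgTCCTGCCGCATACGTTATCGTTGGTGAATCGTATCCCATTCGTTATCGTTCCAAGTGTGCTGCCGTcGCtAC
ght1: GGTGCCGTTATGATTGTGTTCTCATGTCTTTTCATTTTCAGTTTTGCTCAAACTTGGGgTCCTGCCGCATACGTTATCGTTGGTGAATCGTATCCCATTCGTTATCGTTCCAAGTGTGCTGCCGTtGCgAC
ght6: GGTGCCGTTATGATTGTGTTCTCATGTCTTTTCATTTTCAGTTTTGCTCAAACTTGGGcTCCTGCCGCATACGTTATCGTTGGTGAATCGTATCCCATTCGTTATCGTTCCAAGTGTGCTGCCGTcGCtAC
The same place in ght2 (chr2:3428676-3428806, plus strand) is less alike. There capitals mark bases that match ght6, 115 of 131, and no run of identical bases reaches 36.
ght2: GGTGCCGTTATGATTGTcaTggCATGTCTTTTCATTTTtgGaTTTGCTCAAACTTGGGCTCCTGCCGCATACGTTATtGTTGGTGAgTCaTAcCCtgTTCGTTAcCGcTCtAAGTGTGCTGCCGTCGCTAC
Within this window of 131 bases the abp1Δ list covered all 131 in ght8 and in ght5, 97 in ght1 and 92 in ght6. The wild-type list covered 131 in ght8 and in ght5, 108 in ght1 and 107 in ght6. In ght2 the intervals covered 35 bases in abp1Δ and 42 in wild type.

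Intervals lay in 5 of the 10 gene bodies in abp1Δ and in 6 of 10 in wild type. Over all protein-coding genes 7.12% had an interval in the body in abp1Δ and 7.18% in wild type. The 5 genes in both lists were ght1, ght2, ght5, ght6 and ght8, where 6.24% of all genes were in both. The hexokinase gene hxk2 had intervals in wild type alone, as did 0.939% of all genes, and no member had them in abp1Δ alone, against 0.88% of all genes. The genes ght3, ght4, ght7 and hxk1 had none in either list. The median share of the body covered was 2.32% over the 10 genes in abp1Δ and 6.53% in wild type, and 0% over all genes in each list.

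**Figure D1:**
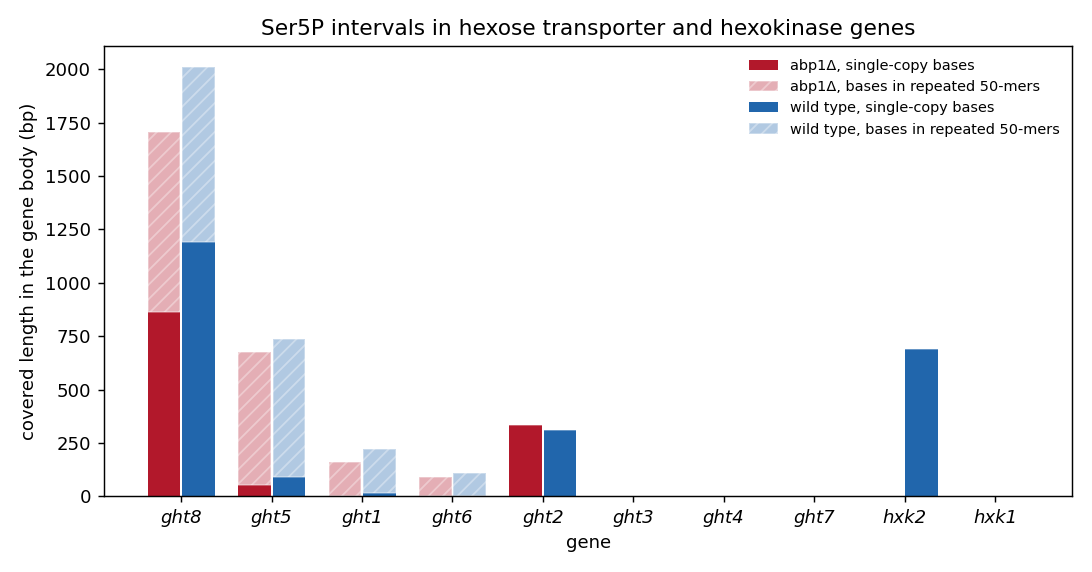
Bars give the bases inside intervals in each gene body (bp) for abp1Δ (red) and wild type (blue), 1 list each; solid parts are single-copy bases and hatched parts lie in 50-mers found more than once in the genome. The tallest bars are those of ght8, with 1706 bp in abp1Δ and 2009 bp in wild type, and those of ght1, ght5 and ght6 are mostly hatched.

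In all, the 10 genes had 37 intervals over 2972 bp in abp1Δ, against 67 intervals over 4077 bp in wild type. This was 1.19% of all covered bases of the abp1Δ list and 1.79% of those of the wild-type list. Without hxk2 the sums were 2972 bp in abp1Δ and 3385 bp in wild type. Fewer bases were covered in abp1Δ than in wild type in 5 of the 6 members that either list covered, and more in 1, ght2. Of these, ght1, ght5, ght6 and ght8 share part of their covered sequence, so they are not separate observations. The sign for ght8 and for ght2 also turned under some alternatives given at the end, and for ght6 the difference fell to 0 under some. Of the 412 protein-coding genes that either list covered, 43.4% had fewer covered bases in abp1Δ and 54.4% had more. A difference was called where covered length differed at least 1.5-fold or 1 list had none. By that rule 1 member was lower in abp1Δ, hxk2, and 0 were higher, where 24.5% of the 412 genes were lower and 27.9% higher. For the other covered members the ratio of covered bases, abp1Δ over wild type, lay between 0.726 for ght1 and 1.08 for ght2. An alternative added after the data were seen left out all bases in repeated 50-mers. There ght5 (52 bp in abp1Δ and 92 in wild type) and ght1 (0 and 15 bp) also passed as lower, making 3 members. The share of all genes called under that alternative is not given here. The 24.5% belongs to the lists as deposited, so the 3 cannot be set against it.

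**Figure D2:**
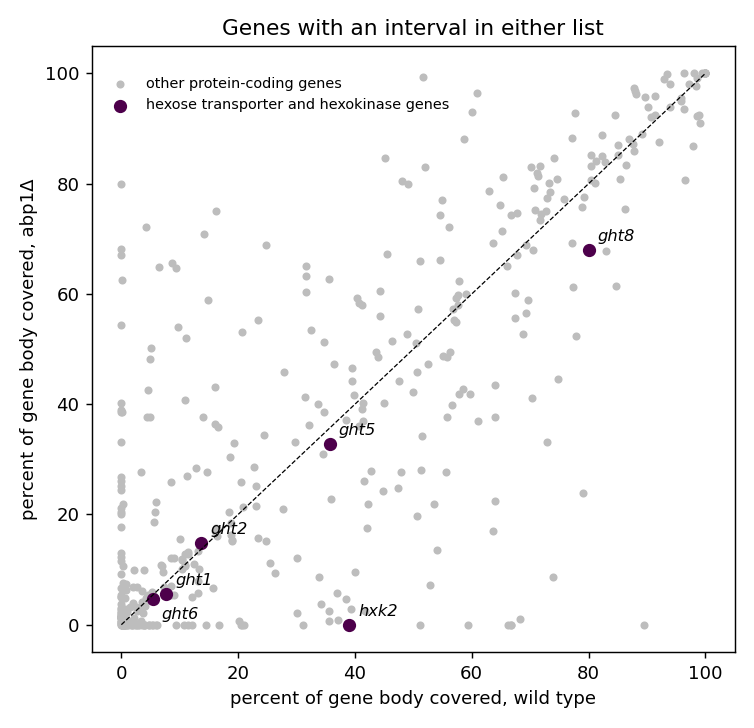
Each point is a protein-coding gene that at least 1 list covered, placed by the percent of its body covered in wild type (x axis) and in abp1Δ (y axis); the dashed line marks equal values. The member hxk2 lies on the x axis, at 0% in abp1Δ and 39.0% in wild type, and the other 5 covered members lie close to the line.

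The transporter genes ght6, ght5, ght8 and ght1 lie in this order within 30463 bp of chromosome III (204733 to 235195), with 6 other protein-coding genes inside that span. No interval of either list fell between the 4 genes: all 2638 covered bp of the span in abp1Δ and all 3075 in wild type lay in their bodies. The gene next to each member outside the family was also without an interval in both lists, among them mal1, the maltase gene beside ght4, and cdc25 beside hxk1. None of the 500 bp before the start or past the end of any member was covered in either list.

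The gene ght8 (SPCC548.06c, chromosome III, 226336 to 228845, minus strand), which encodes a hexose transporter, had the most covered bases of the set. Intervals took up 1706 bp in abp1Δ, 68.0% of the body, and 2009 bp in wild type, 80.0%. It gave 57.4% of the covered bases of the 10 genes in abp1Δ and 49.3% in wild type. By covered length it ranked 37 of 364 genes with an interval in the abp1Δ list and 15 of 367 in the wild-type list. By highest score it ranked 168 in the abp1Δ list, level with ght1, ght5 and ght6, and 57 in the wild-type list. The highest score was 419 in abp1Δ and 617 in wild type, values that are on scales not known to be alike.

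The covered stretch of ght8 was longer at both ends in wild type. In abp1Δ it ran from base 456 to base 2251 of the 2510 bp body, counted from the annotated start, with 1 unbroken interval of 1621 bp. In wild type it ran from base 182 to base 2406, with a widest interval of 946 bp. The coding sequence spans bases 446 to 2089, and within it the lists were nearly level, with 1606 bases covered in abp1Δ and 1589 in wild type. Before the coding sequence 0 bp were covered in abp1Δ and 151 in wild type, and past it 100 bp in abp1Δ and 269 in wild type. The net difference in ght8 thus lay in the transcribed flanks, and it was opposite in sign and small when the coding sequence alone was counted. That count includes shared sequence. The gap between the wild-type intervals ending at base 1264 and starting at base 1324 lies in a run identical to ght5 (bases 1229 to 1448). Over the whole body, covered bases in repeated 50-mers numbered 843 in abp1Δ and 816 in wild type, and single-copy ones 863 and 1193.

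**Figure D3:**
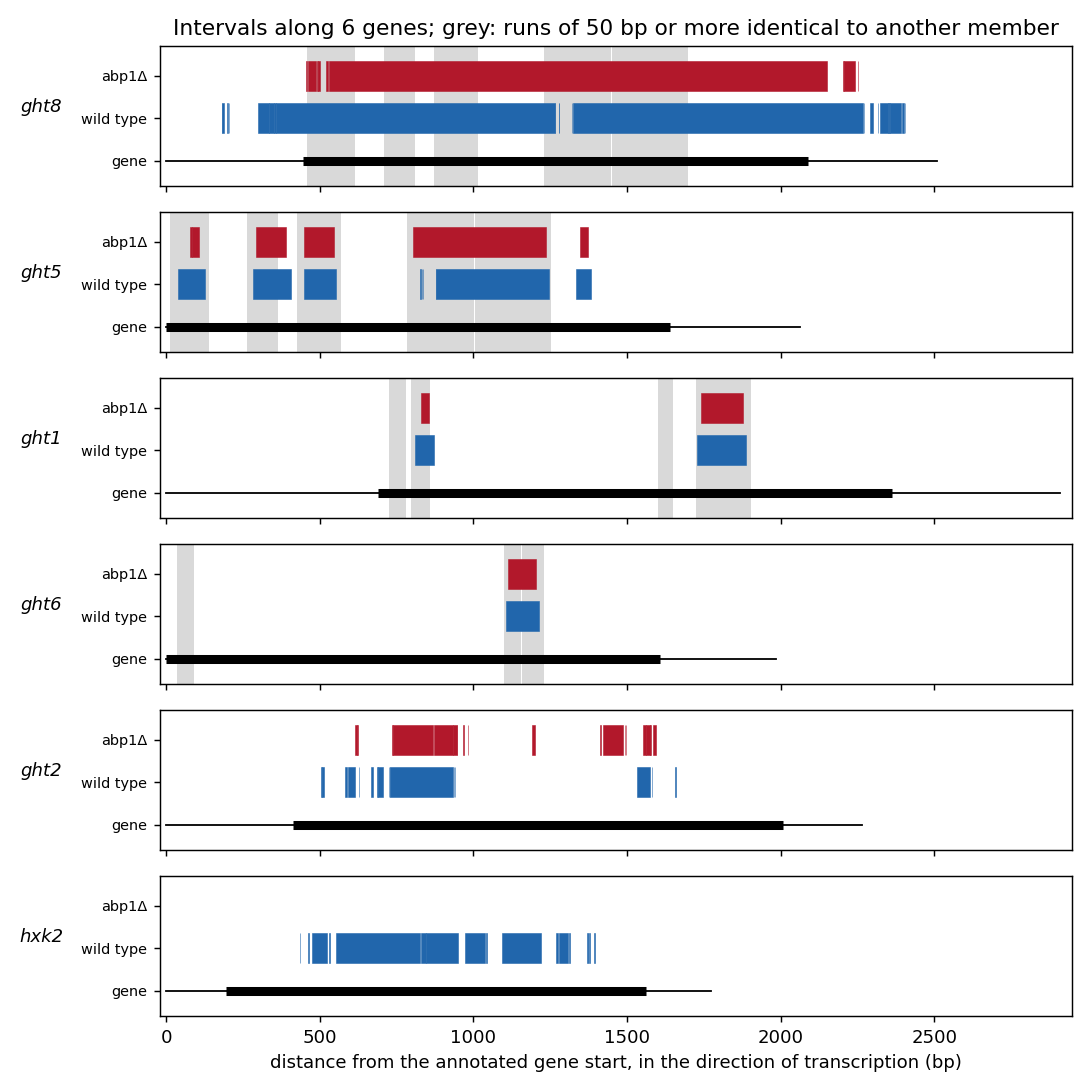
Intervals along the 6 genes that have any, for abp1Δ (red, upper row) and wild type (blue, lower row), by distance from the annotated start (bp); the black bar is the gene with the coding sequence thickened, and grey marks runs of 50 bp or more identical to another member. Intervals of ght5, ght1 and ght6 sit mostly on grey, those of ght8 on grey and white, and those of ght2 and hxk2 on white.

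The gene ght5 (SPCC1235.14, chromosome III, 212313 to 214376, plus strand), encoding the high-affinity glucose and fructose transporter, came next among the transporters by covered bases as deposited. With bases in repeated 50-mers left out it had 52 bp in abp1Δ and 92 in wild type, fewer than ght2 with 334 and 310. With bases in 36-mers found once it had 219 and 302 bp, again fewer than ght2. With bases in 50-mers found once, however, ght5 had 345 bp in abp1Δ and 429 in wild type, more than ght2 in both lists. Its place relative to ght2 thus depended on how shared sequence was left out. As deposited, covered bases numbered 678 in 6 intervals in abp1Δ and 736 in 9 intervals in wild type, 32.8% and 35.7% of the body. The lists shared 606 of these bases, 89.4% of the abp1Δ and 82.3% of the wild-type bases. In abp1Δ the intervals wider than 50 bp lay at bases 294 to 389, 451 to 545 and 804 to 1235, with scores of 354, 369 and 419. In wild type they lay at bases 38 to 125, 284 to 407, 448 to 552 and 880 to 1246, with scores of 386, 555, 557 and 613. No base past 1373 in abp1Δ or past 1383 in wild type was covered, although the coding sequence runs to base 1641. The annotation starts ght5, like ght6, at its start codon, so position 1 of these bodies is the first coding base.

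Ght8 and Ght5 are the most alike of the 28 pairs of Ght proteins, with 91.6% identical residues over 545 aligned positions, and their coding sequences were 92.6% identical. The genes share 10 identical runs of 30 bp or more, 1035 bp in all, the longest of 248 bp. A base was called repeated where it lay in a 50-mer found more than once in the genome, and single-copy otherwise. Of the 841 repeated bases of ght5, 626 were covered in abp1Δ (74.4%) and 644 in wild type (76.6%). Of its 1223 single-copy bases, 52 were covered in abp1Δ (4.25%) and 92 in wild type (7.52%). In ght8 both kinds of base were covered: 843 of 871 repeated bases in abp1Δ and 816 in wild type, and 863 of 1639 single-copy bases in abp1Δ and 1193 in wild type.

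The longest stretch of ght5 between runs shared with ght8 shows this contrast in sequence. It is given below for ght8 (chr3:227618-227831, minus strand), where all 214 bases lay in intervals of both lists, and for ght5 (chr3:212882-213095, plus strand), where 0 did in either list. Capitals mark the 33 bases that differ between the genes.
ght8: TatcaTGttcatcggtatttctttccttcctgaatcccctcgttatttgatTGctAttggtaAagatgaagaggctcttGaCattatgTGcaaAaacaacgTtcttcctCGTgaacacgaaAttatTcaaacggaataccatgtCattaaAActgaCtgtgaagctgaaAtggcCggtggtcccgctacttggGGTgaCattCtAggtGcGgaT
ght5: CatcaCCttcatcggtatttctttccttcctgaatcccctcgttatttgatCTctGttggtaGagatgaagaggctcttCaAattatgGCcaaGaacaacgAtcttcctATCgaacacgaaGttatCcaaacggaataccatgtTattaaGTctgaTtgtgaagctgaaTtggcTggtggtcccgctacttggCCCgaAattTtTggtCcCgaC
The longest run of identical bases inside this stretch is 44 bp, while the runs on either side of it are 143 and 220 bp long. The sources used here give neither the read length nor how reads that match several places were counted.

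The high-affinity glucose transporter gene ght1 (SPCC548.07c, chromosome III, 232288 to 235195, minus strand) was covered in 2 short places. They spanned 162 bp in abp1Δ and 223 bp in wild type, 5.57% and 7.67% of the body. In abp1Δ they were bases 830 to 854, with a score of 252, and bases 1741 to 1877, with 419. In wild type they were bases 812 to 873, with a score of 463, and bases 1728 to 1888, with 508. The first place meets a run of 62 bp identical to ght8 (bases 797 to 858), and the other lies in a run of 182 bp identical to both ght8 and ght5 (bases 1724 to 1905). All 162 covered bases in abp1Δ and 208 of 223 in wild type were repeated, and of the 2558 single-copy bases 0 were covered in abp1Δ and 15 in wild type.

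The glucose and fructose transporter gene ght6 (SPCC1235.13, chromosome III, 204733 to 206717, plus strand) had 1 interval in each list. It covered bases 1112 to 1203 in abp1Δ, 92 bp, and bases 1106 to 1212 in wild type, 107 bp. Both intervals lie within the window printed above (bases 1099 to 1229), and 91 of the 92 bases in abp1Δ and 106 of the 107 in wild type were repeated. Of the 1799 single-copy bases of ght6, 1 was covered in each list. The single differing bases in the window leave each of these bases also inside some 50-mer that occurs once: by that looser rule all 92 bases in abp1Δ and all 107 in wild type were kept.

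The scores of these 4 genes were tied in part. The highest score in abp1Δ was 419 in each of ght8, ght5, ght1 and ght6, and these are the 4 intervals with that score in the whole abp1Δ list. Each of the 4 intervals overlaps the window printed above. In wild type the highest scores were not tied, at 617 in ght8, 613 in ght5, 508 in ght1 and 498 in ght6. At a finer scale, ght5 and ght8 had 1 bp intervals in wild type at matching places of their shared run, to within 1 base: bases 834, 836 and 878 of ght5 and bases 1278, 1280 and 1322 of ght8, with scores of 200, 202 and 203 in both genes. In abp1Δ the interval at bases 78 to 83 of ght5 and that at bases 522 to 527 of ght8 both scored 211. The genes ght5 and ght8 lie on opposite strands. In each of these pairs the ght8 place was 1 base lower than the shared run puts it. With starts read as 1-based the pairs would match exactly, and every interval would be 1 base wider. Which reading is right is not stated by the sources used here and was not tested further. Across ght1, ght5 and ght6, all 9 intervals in abp1Δ and all 12 in wild type met sequence whose 36-mers occur more than once. The widest ght8 intervals of both lists also met repeated sequence, and the share of all intervals that do so is not given here. By a different measure, single-copy covered bases numbered 863 in abp1Δ and 1193 in wild type in ght8. They numbered 52 and 92 in ght5, 0 and 15 in ght1, and 1 in each list in ght6. How much of the coverage of ght1, ght5 and ght6 belongs to each gene was not tested.

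Shared sequence was also present without intervals. The gluconate transporter gene ght3 (SPAC1F8.01, chromosome I, 82936 to 84786, plus strand) and ght4 (SPBC1683.08, chromosome II, 155772 to 159570, plus strand) share runs of 240 and 70 bp, and 310 bases of each gene were repeated. Their proteins were 86.9% identical, the next most alike pair after Ght8 and Ght5. Neither gene was covered in either list. The gene ght7 (SPBC1348.14c, chromosome II, 38514 to 40143, minus strand) has 0 repeated bases and was not covered either.

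The glucose and fructose transporter gene ght2 (SPBC4B4.08, chromosome II, 3427160 to 3429424, plus strand) stands outside this group, since 0 of its bases were repeated. Its 19 intervals in abp1Δ covered 334 bp and its 16 in wild type 310 bp, 14.7% and 13.7% of the body, a ratio of 1.08. The lists shared 220 bases, 65.9% of the abp1Δ and 71.0% of the wild-type bases. The highest score was 248 in abp1Δ and 278 in wild type, and 15.3% of the intervals of the abp1Δ list and 10.1% of those of the wild-type list scored as high or higher. In abp1Δ the intervals ran from base 615 to base 1595 and in wild type from base 506 to base 1659, and all of these bases lay in the coding sequence. The widest wild-type interval (203 bp, bases 731 to 933) is shown with 10 bases on each side (chr2:3427880-3428102, plus strand). Capitals mark the 198 bases that lay in intervals of both lists.
ght2: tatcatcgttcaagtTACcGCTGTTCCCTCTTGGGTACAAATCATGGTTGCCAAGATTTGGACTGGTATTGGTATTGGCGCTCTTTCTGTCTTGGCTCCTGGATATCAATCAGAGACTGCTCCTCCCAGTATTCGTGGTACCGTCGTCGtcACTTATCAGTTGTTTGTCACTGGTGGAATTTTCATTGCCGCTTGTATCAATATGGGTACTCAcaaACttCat
Among the intervals that met none of the other list, abp1Δ had the one at bases 1424 to 1487, which held its highest score, and wild type had those between bases 506 and 515, 584 and 588, and 669 and 705. The direction of the difference turned with the processing: after intervals up to 100 bp apart were merged, ght2 had 449 bp in abp1Δ and 562 bp in wild type.

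Hexokinases phosphorylate sugar once it is inside the cell, and of their 2 genes hxk2 alone had intervals. The gene hxk2 (SPAC4F8.07c, chromosome I, 2665623 to 2667395, plus strand) had no interval in abp1Δ and 17 intervals over 692 bp in wild type, 39.0% of the body. The wild-type intervals ran from base 435 to base 1394, all within the coding sequence (bases 194 to 1561). Their highest score was 309, and 7.83% of the intervals of the wild-type list scored as high or higher. By covered length hxk2 ranked 103 of 367 genes in that list and by score 229. None of its bases was repeated. The widest interval (275 bp, score 309) is shown in capitals with 10 bases on each side (chr1:2666165-2666459, plus strand).
hxk2: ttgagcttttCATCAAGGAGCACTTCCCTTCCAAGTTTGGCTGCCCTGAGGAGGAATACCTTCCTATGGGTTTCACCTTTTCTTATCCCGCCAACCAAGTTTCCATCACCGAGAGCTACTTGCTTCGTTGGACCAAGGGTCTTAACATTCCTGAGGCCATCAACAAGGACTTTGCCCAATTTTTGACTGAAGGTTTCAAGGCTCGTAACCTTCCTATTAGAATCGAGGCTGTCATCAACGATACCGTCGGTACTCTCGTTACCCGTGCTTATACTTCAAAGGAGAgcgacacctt
The absence of an interval in abp1Δ does not give a level, and whether the lists share a scale is unknown, so no fold change was computed. The gene hxk1 (SPAC24H6.04, chromosome I, 482607 to 485184, minus strand) was not covered in either list, and the 2 hexokinase proteins were 36.7% identical.

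**Figure D4:**
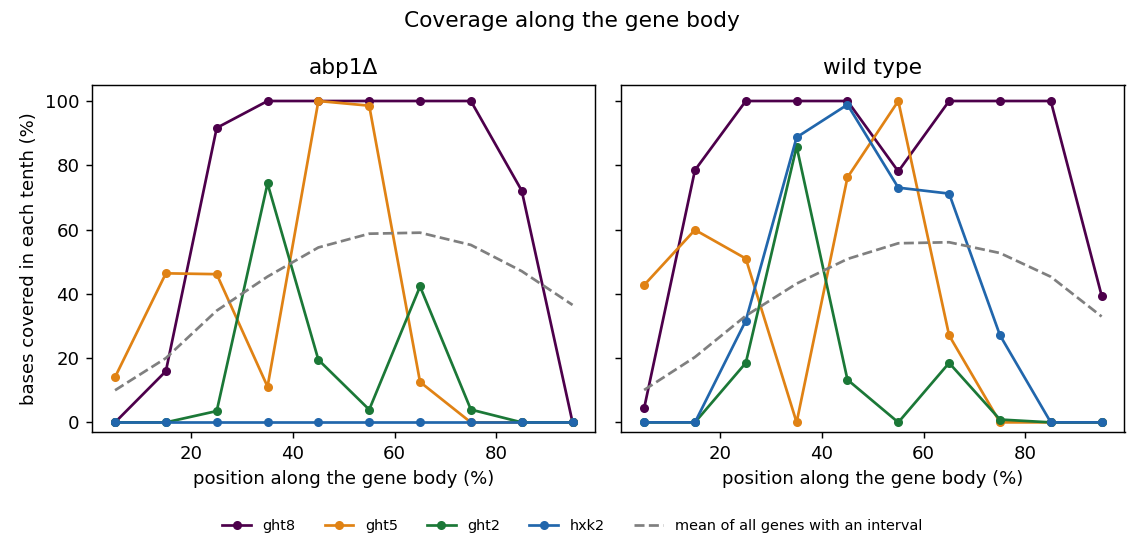
Lines give the percent of bases covered in each of 10 equal parts of the gene body, from start (left) to end (right), for ght8, ght5, ght2 and hxk2 in abp1Δ (left panel) and wild type (right panel); the dashed line is the mean of all genes with an interval. In abp1Δ the hxk2 line stays at 0%, while in wild type it reaches 98.9% in part 5.

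Along the gene bodies, the middle was covered most on average, though single genes differed. Each body was cut into 10 equal parts from start to end. Averaged over the 10 genes, part 6 was the most covered in both lists, with 24.4% of its bases in abp1Δ and 30.1% in wild type. Part 1 had 1.41% in abp1Δ and 4.71% in wild type, and part 10 had 0% in abp1Δ and 3.94% in wild type. The part 1 value in abp1Δ came from ght5 alone, and the part 10 value in wild type from ght8 alone. Over all genes with an interval, part 7 was the most covered, at 59.0% in abp1Δ and 56.0% in wild type. The means over the 10 genes include members without an interval, so their levels cannot be set against these. In part 6, ght5 was covered over 98.5% in abp1Δ and 100% in wild type, and ght6 over 40.2% and 43.2%, almost all of it repeated sequence. The most covered part of ght2 was part 4, at 74.3% in abp1Δ and 85.8% in wild type, while its part 6 had 3.96% and 0%. In ght8 part 2 was covered over 15.9% in abp1Δ and 78.5% in wild type. In wild type ght8 was covered over 78.1% in part 6 and 100% in part 7. In ght5 part 4 lay largely between shared runs and was covered over 11.1% in abp1Δ and 0% in wild type. Its covered bases in abp1Δ belong to the interval that starts at base 804, inside the run shared with ght8 from base 784.

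Shared sequence took a larger part of the covered bases in this family than in the lists as a whole. Of the covered bases of the 10 genes, 57.9% in abp1Δ and 43.5% in wild type were repeated, against 10.4% and 11.3% of each whole list and 4.54% of the 3 chromosomes. More than 50% of the covered bases were repeated in 3 of the 5 covered members in abp1Δ and in 3 of 6 in wild type, the genes ght1, ght5 and ght6. This held for 9.89% of all 364 genes with an interval in abp1Δ and for 7.90% of 367 in wild type. Single-copy covered bases numbered 863 in abp1Δ and 1193 in wild type in ght8, 334 and 310 in ght2, and 0 and 692 in hxk2. In ght5 they numbered 52 in abp1Δ and 92 in wild type, among them a whole interval in each list, bases 1348 to 1373 in abp1Δ and bases 1336 to 1383 in wild type. In ght1 they numbered 0 and 15, and in ght6 1 in each list.

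Other genes of sugar use were read from lists set by pathway. Of 11 glycolytic genes downstream of hexokinase, 10 had an interval in abp1Δ and 9 in wild type, where 7.12% and 7.18% of all genes had one. Covered bases were more numerous in abp1Δ in 5 of them and fewer in 2, where 54.4% of the 412 covered genes had more and 43.4% fewer. The largest differences were at pfk1, encoding phosphofructokinase, with 601 bp in abp1Δ and 178 in wild type, and at the dehydrogenase gene gpd3, with 801 and 611 bp. Next were pgi1, encoding glucose-6-phosphate isomerase, which uses the product of hexokinase, with 98 bp in abp1Δ and 0 in wild type, and the enolase gene eno101, with 1457 and 1403 bp. Covered length cannot exceed the gene body. It took up 100% of the body of fba1, tdh1 and pgk1 in both lists and of eno101 in abp1Δ, so a difference there could be hidden or cut short. Of 12 genes for glucose sensing and cAMP signalling 1 had intervals, hsp90, which is listed there under its older name git10 and encodes a general chaperone, with 2352 bp in abp1Δ, against 2558 bp in wild type. The receptor gene git3, the adenylate cyclase gene cyr1 and the kinase gene pka1 had none in either list.

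Of 8 genes for glucose repression and gluconeogenesis 0 had an interval in either list, a count near the 7.12% and 7.18% of all genes that had one. They include the repressor gene scr1, the fructose-1,6-bisphosphatase gene fbp1 and the invertase gene inv1. That list also held pck1, a protein kinase C gene in this yeast. Of 9 genes for other sugar transport and use 1 had intervals in both lists, the malic enzyme gene mae2, whose product acts on malate and not on sugar, with 1106 bp in abp1Δ, against 470 bp in wild type. Of 6 genes for trehalose and glucose-6-phosphate branches, fyu1 had 505 bp in abp1Δ and 0 in wild type. It encodes a uridylyltransferase that makes UDP-glucose, and the other gene for that enzyme, ugp1, had none in either list. Both mae2 and fyu1 lie on chromosome III. Other genes there also had more covered bases in abp1Δ, such as scw1 (1420 bp, against 0 in wild type) and amt1 (905 and 0). Some had fewer, such as bfr1 (0 and 1286). Whether the differences at mae2 and fyu1 are particular to these genes was not tested.

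Genes of similar length, within 20%, were ranked by the distance between their percent of body covered in both lists and that of each member. With 2 values per gene this likeness is a description. Nearest to ght8 were mcp60, the glucanosyltransferase gene gas5 and the peptide transporter gene ptr2, at distances of 9.59, 10.2 and 12.5 percentage points. Nearest to ght5 was aar2, a splicing factor gene, at 2.25, followed by gpd3 at 9.41 and mas5 at 14.8. Nearest to ght2 were pdp1, ubp6 and pdi4, at 2.95, 3.01 and 3.31. Nearest to hxk2 was the transporter gene SPBPB10D8.04C, at 12.1, with 0% of the body covered in abp1Δ and 51.1% in wild type, then the ornithine transaminase gene car2 at 15.6 and SPAC8E11.10 at 23.0. The covered length of SPBPB10D8.04C, 0 bp in abp1Δ and 761 bp in wild type, was the same in SPBPB10D8.05C, SPBPB10D8.06C and SPBPB10D8.07C. Whether these genes share sequence was not tested. For ght1 the 3 nearest were pli1, ssa1 and cdc22, within 3.11 points, and for ght6 seb1, ura3 and SPAC13C5.05C, within 3.51 points.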

How the data were processed

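Polymerase immunoprecipitates of 2 genotypes were analysed. Chromatin was sheared to 250 to 400 bp, per the labels' protocols, and Bowtie 0.12.5 is named in the submitters' processing notes. The sources used here do not give the peak caller, build, scaling or use of the inputs. Groups came from the source names, where the mutant immunoprecipitate is spelled APB1d. Each list as deposited has 4 columns: chromosome, start, end and the authors' score for each interval, of unstated unit. Starts were read as 0-based and positions printed 1-based on assembly ASM294v3, which may differ from the authors' build. The origin of the start column is not stated, and starts read as 1-based were an alternative, which makes each interval 1 base wider. Protein-coding genes held 90.4% of abp1Δ and 89.6% of wild-type covered bases as deposited, and no more than 70.8% and 69.7% after a shift of 1000 bp either way. Sequences were read from RefSeq's ASM294v3 genome.

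Covered bases were counted from gene start to gene end, and 1 base made a gene covered. Repeats were counted as 50-mers on both strands. Proteins were translated and aligned globally with BLOSUM62 in Biopython 1.88, under Python 3.11.15 with numpy 2.4.6. Functions were tested on simulated data. Depth is unknown, so no counting interval was given, and no p-value was computed. Members, lists and alternatives were chosen with earlier results of these data known. The genes named are the members, their neighbours, up to 4 genes per pathway list with the largest difference in covered bases, and the 3 genes most like each covered member. Genes named beyond these were chosen for their role, their place on chromosome III or values equal to those of a named gene. The 10 alternatives and 3 added after the data were seen are given at the end.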

Additional observations from a re-analysis of the deposited data

How the results depend on the processing

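The members with an interval numbered 5 in abp1Δ and 6 in wild type under 10 of the 13 alternatives. The other 3 were added after seeing the data: leaving out repeated 50-mers or repeated 36-mers gave 4 in abp1Δ and 6 in wild type. Leaving out repeated 50-mers and requiring 50 bp gave 3 in abp1Δ (ght2, ght5, ght8) and 4 in wild type (these and hxk2). The count called lower in abp1Δ was 1, hxk2, under 8 of the 13. It was 2 when only bases in 50-mers or in 36-mers found once were kept, with ght1 (78 bp in abp1Δ and 139 in wild type for 50-mers), and 3 without repeated 50-mers or 36-mers, with ght1 and ght5. It was 2 under the combined alternative, with ght5. The share of all genes called is given for the lists as deposited only, so these counts have no background. No member was called higher under any of the 13, and the counts of pathway genes with an interval stayed within 1.5 times of those given.

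Covered bases of the 10 genes summed to 2804 bp in abp1Δ with lists of the same covered length. With starts read as 1-based they summed to 3009 bp in abp1Δ and 4144 bp in wild type. Counting the coding sequence alone gave 2872 bp in abp1Δ and 3657 bp in wild type, and merging intervals up to 100 bp apart gave 3240 and 4990 bp. With bases in 50-mers found once the sums were 2221 and 3378 bp, and with 36-mers 1933 and 3093 bp. Without any base in a repeated 50-mer they were 1250 bp in abp1Δ and 2303 bp in wild type, also when 50 bp were required, and without repeated 36-mers 1087 and 2112 bp. With 36-mers, 63.4% of covered bases in abp1Δ and 48.2% in wild type were repeated.

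The sign of the difference held under all 13 alternatives for hxk2, ght1 and ght5. For ght8 it turned in 1, coding sequence alone (1606 bp in abp1Δ and 1589 in wild type), and for ght2 in 2, merging and equal covered length (257 and 310 bp). For ght6 it was 0 in 3 and held in 10. No paired analysis was possible because each genotype has 1 list. Why these values moved was not tested beyond the bases each alternative removes or adds.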
